A study of Bubalus bubalis with 2 samples.

Results

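The insulin-like growth factor (IGF) system was followed in cell-free saliva RNA of Murrah water buffalo, through the rows of its 2 ligands, IGF1 and IGF2, and of its 7 binding proteins, IGFBP1 to IGFBP7. Members were taken by exact gene symbol, which gave all 9 of them among the 20905 genes of the deposited table. The table holds 1 library of total RNA from saliva at estrus, the phase of sexual receptivity, and 1 library at diestrus, the luteal phase. Both libraries are of the same breed, and the labels name no treatment. The age of the animals, and whether a library came from 1 animal or from a pool, is not given in the sources used here. With 1 library per stage there is no spread between animals, so every difference below describes these 2 libraries and has no replicate check.

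IGF1 and IGF2 are small secreted growth factors that signal mainly through the receptor tyrosine kinase IGF1R, whereas IGF2R takes IGF2 up for degradation. The binding proteins IGFBP1 to IGFBP6 hold the ligands with high affinity outside the cell, lengthen their life in body fluids and keep them from the receptor. Proteases such as PAPPA cut some of them and free the ligand, and IGFBP7 is a more distant relative that binds IGFs weakly. In ruminants the system is best known in the ovary, where binding proteins and their proteases set how much free IGF a growing follicle receives.

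Values are FPKM, fragment counts divided by transcript length and by the mapped fragments of the library, so they are scaled for length and can be compared between genes. The depth of each library was read from steps in the values of short loci: 1 fragment on 1 kb of effective transcript length was worth 0.233 FPKM at estrus against 1.25 FPKM at diestrus. On that scale estrus was sequenced 5.38 times deeper, if each library was divided by its own total. A count of 3 fragments, the level below which a value is not told from 0 here, corresponds on 1 kb to 0.699 FPKM at estrus against 3.76 FPKM at diestrus. A longer transcript reaches 3 fragments at a lower FPKM, so a value under this level on 1 kb can still rest on more fragments. Intervals in brackets are 95% exact Poisson or binomial intervals for a transcript with 1 kb of effective length, and they cover counting error only. Intervals of log2 ratios are for the plain ratio of the FPKM values. Positions come from the loci of the deposited table, with starts counted from 1, on a genome build that no source used here names.

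The labelled fluid was checked against its markers. Of 22 salivary gland secreted proteins 11 had a row, and all 11, among them AMY2B, LPO, LTF and PIGR, were listed at 0 in both libraries. So were 10334 of all 20905 genes. Of the 16 fibroblast markers 15 were above 0 in both libraries, and their values summed to 15415 FPKM at estrus against 17401 FPKM at diestrus. Of 18 oral squamous epithelium markers 7 were at 0 in both libraries, KRT4 among them, and the rest summed to 30194 FPKM in estrus, nearly all of it KRT6A, and 1569 FPKM in diestrus. Most other markers of that list ran the other way: of the 10 with a mean of at least 1 FPKM, KRT6A was the 1 at least 2-fold higher in estrus and 7 were at least 2-fold lower, such as KRT5 at 6.80 FPKM at estrus against 164 FPKM at diestrus and ECM1 at 26.0 FPKM at estrus against 479 FPKM at diestrus. Over all 8269 genes with such a mean, 31.3% were higher and 33.1% lower. Leukocyte markers summed to 22.0 FPKM at estrus against 26.7 FPKM at diestrus with PTPRC at 0 in both, and endothelial markers to 50.8 FPKM in estrus, nearly all ESAM, and 1.65 FPKM in diestrus, with PECAM1 at 0 in both. Of 12 hepatocyte markers 11 were at 0 in both, ALB among them. Fewer cells of a type behind the RNA and less RNA per cell cannot be told apart in such bulk samples, and the part of these cell types in the results below was not tested.

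**Figure D1:**
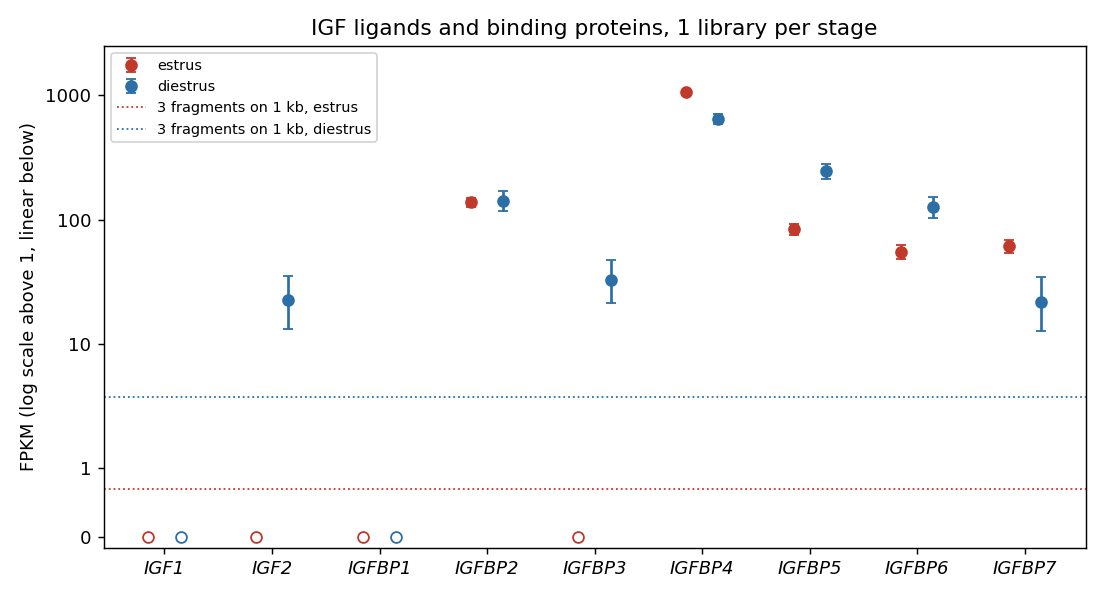
FPKM of each member in the estrus and diestrus libraries (vertical axis, log scale above 1 FPKM), with 95% Poisson intervals for 1 kb of effective length; open circles are values listed at 0, and dotted lines mark 3 fragments on 1 kb. IGFBP4 was the most abundant member in both libraries, and IGF2 and IGFBP3 were listed above 0 in diestrus only.

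Of the ligands, IGF2 alone was listed above 0, and only in the diestrus library. IGF2, a growth factor of fetal and adult connective tissues, stood at 0 FPKM at estrus against 22.4 FPKM at diestrus (13.3 to 35.5). The diestrus value amounts to 17.9 fragments per kb, and the same level would have given 96.2 fragments per kb in the estrus library. IGF1, the main circulating ligand, which the liver makes under growth hormone, has its row on chromosome 5 (66532877 to 66604734) and was listed at 0 in both libraries. The level of 3 fragments on 1 kb given above, 0.699 FPKM at estrus against 3.76 FPKM at diestrus, is taken as the limit for such a 0. On a transcript of 1 kb a level of IGF1 below it was not detectable. IGF2 has its row on chromosome 29 (50046626 to 50065230), 9363 bp from INS, the insulin gene, which was at 0 in both libraries.

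IGFBP3, the main carrier of IGFs in blood, on chromosome 4 (76705105 to 76712709), showed the same layout as IGF2, with 0 FPKM at estrus against 32.5 FPKM at diestrus (21.2 to 47.6). The diestrus value amounts to 25.9 fragments per kb and would have given 139 fragments per kb in estrus. A listed 0 can be a failed estimate in tables of this kind. Of the 1618 other genes within 2-fold of the diestrus value of IGFBP3, 6.55% were also listed at 0 in estrus, and of the 2010 other genes within 2-fold of the diestrus value of IGF2, 7.66% were. No fold change is given for either gene because one library is at 0. IGFBP1, a binding protein made mainly by liver and decidua and lowered by insulin, lies 8173 bp from IGFBP3 (76720883 to 76725301) and was listed at 0 in both libraries.

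IGFBP4, on chromosome 19 (41326678 to 41338255), was the leading member in both libraries. This protein, which inhibits IGF action and is the classic substrate of PAPPA, stood at 1070.2 FPKM in estrus (1039 to 1102) against 649 FPKM in diestrus (594 to 707). It ranked 118 of the 8424 genes above 0 in estrus and 124 of the 9491 above 0 in diestrus, so its place among all genes was nearly the same in the 2 libraries. The log2 ratio of estrus over diestrus was 0.72, computed as log2(FPKM + 1), a scale that understates the change of low genes and is used for every ratio below. That is under 2-fold, and the direction turned with equal FPKM sums in the libraries, where the log2 ratio was -0.24.

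IGFBP2 and IGFBP5 are neighbours on chromosome 2 (105338358 to 105367369 and 105378991 to 105397646), 11621 bp apart, and had unlike ratios. IGFBP2, a carrier that is abundant in fetal and ovarian fluids, stood at 138 FPKM in estrus (127 to 149.8) and 142 FPKM in diestrus (117 to 171). Its log2 ratio of -0.039 had a counting interval from -0.33 to 0.26, which includes no difference. This holds for the values as deposited: the ratio was -0.42 with equal upper quartiles and -0.99 with equal FPKM sums, both outside that interval. IGFBP5, a matrix-bound form conserved among vertebrates and common in connective tissue, stood at 83.6 FPKM in estrus (75.2 to 92.7) and 246 FPKM in diestrus (213 to 283). Its log2 ratio was -1.55, with a counting interval from -1.81 to -1.30, so IGFBP5 was lower in estrus by more than counting error on 1 kb. The interval leaves out differences between animals and between library preparations, which 1 library per stage cannot show.

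IGFBP6, which binds IGF2 in preference to IGF1, was also lower in estrus. Its row on chromosome 5 (27044009 to 27047853) held 54.9 FPKM in estrus (48.1 to 62.3) and 126 FPKM in diestrus (103 to 153). The log2 ratio was -1.19, with a counting interval from -1.54 to -0.85. IGFBP5, with a log2 ratio of -1.55, was likewise lower in the estrus library on values detected in both libraries. IGF2 and IGFBP3 were lower only through their estrus values, which can be failed estimates.

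IGFBP7 was the member with the highest ratio towards estrus. This weak IGF binder, a protein of vessel walls and stroma, stood at 61.3 FPKM in estrus (54.1 to 69.2) and 21.8 FPKM in diestrus (12.8 to 34.7), where it rested on 17.4 fragments per kb. The log2 ratio of 1.45 had a counting interval from 0.79 to 2.29. The row of IGFBP7 gives a locus on chromosome 6 (74027219 to 74150456) that is also the locus of POLR2B, a subunit of RNA polymerase II, so reads of these genes may be divided between the rows. POLR2B stood at 0.129 FPKM at estrus against 2.50 FPKM at diestrus, far under IGFBP7 and under 3 fragments on 1 kb in both libraries. No other member shares a locus with another row.

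In all, 7 of the 9 members had a mean of at least 1 FPKM over the libraries and are counted here, and each of these 7 had a mean of at least 10 FPKM. IGFBP7 was the 1 counted member at least 2-fold higher in estrus, against 31.3% of the 8269 counted genes and 38.7% of the 3928 genes with a mean of at least 10 FPKM. IGF2, IGFBP3, IGFBP5 and IGFBP6, 4 members in all, were at least 2-fold lower, against 33.1% of all counted genes and 24.0% of those with a mean of at least 10 FPKM. IGFBP2 and IGFBP4 lay within 2-fold. The median log2 ratio of the 7 members was -1.19, where that of all counted genes was -0.016 and that of genes with a mean of at least 10 FPKM was 0.51. IGF2 and IGFBP3 count as lower, and enter the median of the members, through values listed at 0 in estrus, which can be failed estimates. Among the members above 0 in both libraries, IGFBP5 and IGFBP6 were lower, IGFBP7 was higher, and IGFBP2 and IGFBP4 lay within 2-fold. With 7 members these shares describe the list and are no test of it.

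**Figure D2:**
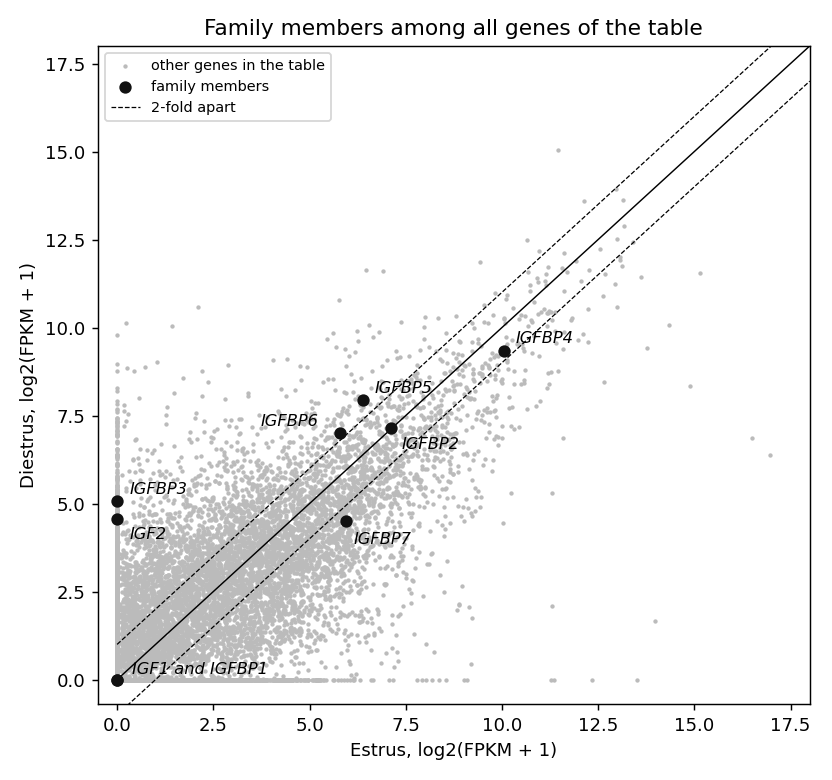
Each gene of the table by its log2(FPKM + 1) in estrus (horizontal) and diestrus (vertical), with the 9 members in black; the solid line marks equal values and the dashed lines 2-fold. IGFBP5 and IGFBP6 lie above the band and IGFBP7 below it, IGFBP2 and IGFBP4 lie inside it, and IGF2 and IGFBP3 stand on the axis of genes at 0 in estrus.

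The authors' deposited table gave a p-value under 1 to 4 members, IGFBP2, IGFBP4, IGFBP5 and IGFBP6, and called 0 of the 9 members. In the authors' deposited table IGFBP4 had the smallest p-value of the members, 0.395, with a q-value of 0.797, and IGFBP5 had a p-value of 0.488 with the same q-value. Among the 1253 genes with a p-value under 1 in the authors' deposited table, 49 were called, or 3.91%.

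The make-up of the binding-protein pool does not depend on how the libraries are scaled to each other. The 7 binding proteins summed to 1408 FPKM at estrus against 1217 FPKM at diestrus, or 0.139% of all FPKM in the estrus library and 0.233% in the diestrus library. IGFBP4 made up 76.0% of that sum in estrus and 53.3% in diestrus. IGFBP5 made up 5.94% in estrus and 20.2% in diestrus, and IGFBP6 3.90% in estrus and 10.4% in diestrus. IGFBP2 held 9.82% in estrus and 11.7% in diestrus, while IGFBP7 held 4.35% in estrus and 1.79% in diestrus. IGFBP3 added 2.67% in diestrus. The pool was thus more uneven in estrus: the level of IGFBP4 was 12.8 times that of IGFBP5 in estrus and 2.63 times in diestrus.

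**Figure D3:**
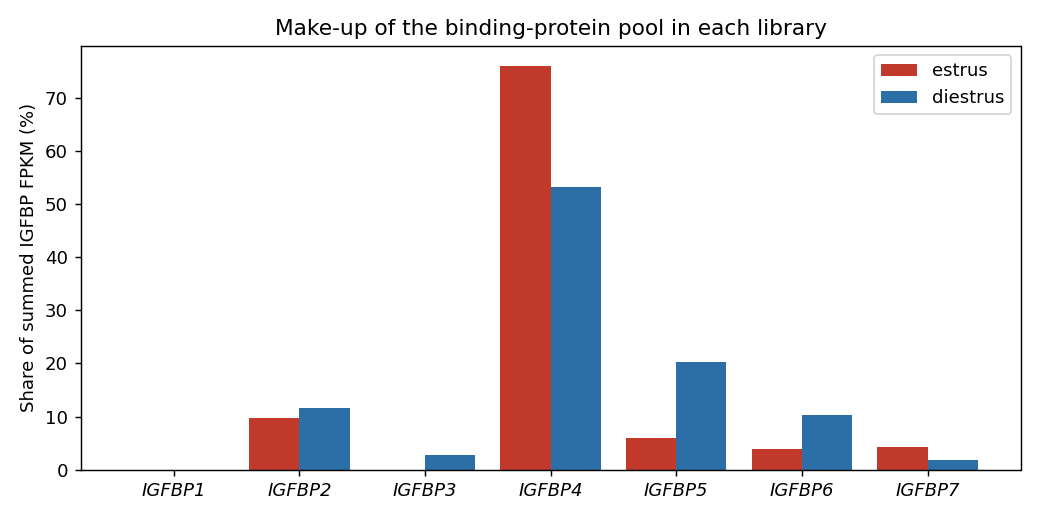
Share of the summed FPKM of IGFBP1 to IGFBP7 held by each gene (vertical axis, percent) in estrus and diestrus, 1 library each. IGFBP4 holds 76.0% in estrus and 53.3% in diestrus, and the shares of IGFBP5 and IGFBP6 are the smaller ones in estrus.

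The order of the levels differed below IGFBP4. In estrus the order after IGFBP4 was IGFBP2, IGFBP5, IGFBP7 and IGFBP6, of which IGFBP7 and IGFBP6 had overlapping counting intervals. In diestrus it was IGFBP5, IGFBP2, IGFBP6, IGFBP3 and IGFBP7. There the intervals of IGFBP2 and IGFBP6 overlapped, and so did those of IGFBP3, IGF2 and IGFBP7. IGFBP5 thus stood at 0.605 times the level of IGFBP2 in estrus and 1.73 times in diestrus, and IGFBP7 at 1.12 times the level of IGFBP6 in estrus and 0.172 times in diestrus.

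Ratios between the libraries do depend on the scaling. Setting the median ratio of genes above 0 in both libraries to 1 shifted the FPKM ratios by -0.11 on the log2 scale, equal upper quartiles by -0.39 and equal FPKM sums by -0.96. IGFBP5 and IGFBP6 were at least 2-fold lower in estrus under each of these. IGFBP7 was above 0 under each, but with equal sums its log2 ratio of 0.52 was under 2-fold, so that 0 members were then 2-fold higher and 4 lower, in place of 1 higher and 4 lower. Over all 8490 genes counted with equal sums 18.2% were higher and 49.2% lower. The summed binding proteins had a log2 ratio of 0.21, which turned to -0.18 with equal upper quartiles and to -0.75 with equal sums, and without IGFBP4 the summed ratio was -0.75 on the values as deposited, with 338 FPKM at estrus against 569 FPKM at diestrus.

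**Figure D4:**
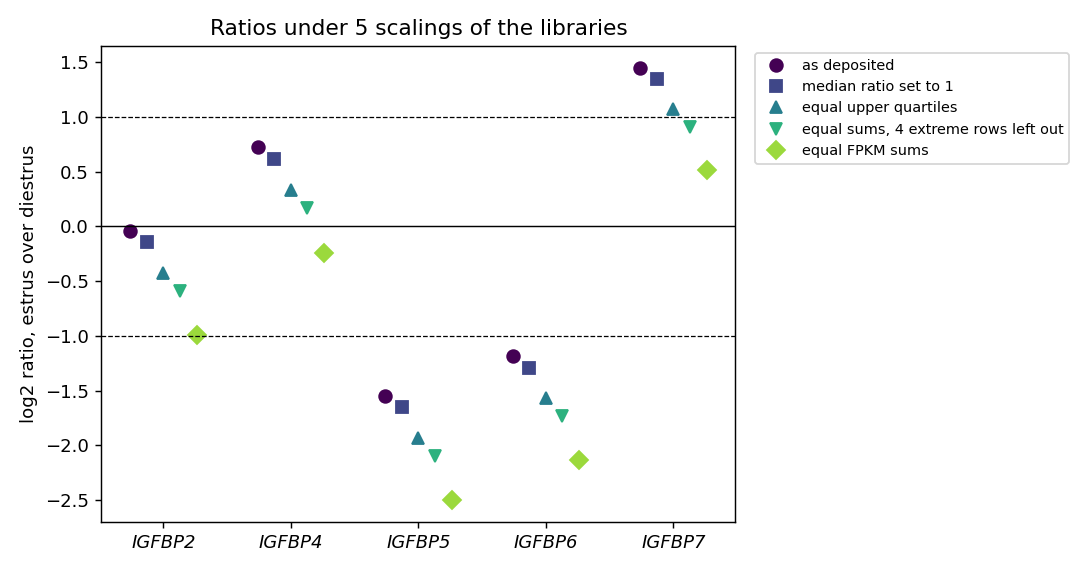
The log2 ratio of estrus over diestrus (vertical axis) of the 5 members above 0 in both libraries, under 5 scalings; dashed lines mark 2-fold. IGFBP5 and IGFBP6 stay below -1 throughout, IGFBP7 stays above 0 but under 1 with equal sums, whether or not OPRM1, PPARGC1A, TBX15 and CSPG5 enter the sums, and IGFBP4 lies on either side of 0 depending on the scaling.

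IGF1R, IGF2R and INSR were lower than every binding protein listed above 0 in the same library. IGF1R, the signalling receptor, stood at 17.5 FPKM at estrus against 2.74 FPKM at diestrus, with 2.30 as the log2 ratio, although the diestrus value amounts to fewer than 3 fragments on 1 kb. IGF2R stood at 0 FPKM at estrus against 1.54 FPKM at diestrus, and INSR, the insulin receptor, at 0 FPKM at estrus against 0.290 FPKM at diestrus, both under 3 fragments on 1 kb in each library. Of 14 receptors and adaptors 9 were counted, with 2 at least 2-fold higher in estrus, 3 lower and 4 between, beside 31.3% higher and 33.1% lower over all counted genes. The adaptor SHC1 stood at 63.3 FPKM at estrus against 83.8 FPKM at diestrus, and GRB2, which links receptors to Ras, at 50.8 FPKM at estrus against 23.8 FPKM at diestrus, a gap within 2-fold under every other scaling. IRS4, an insulin receptor substrate, stood at 0.580 FPKM at estrus against 59.4 FPKM at diestrus, the estrus value being under 3 fragments on 1 kb. The median log2 ratio of the 9 was -0.40, and with equal sums 1 of 10 counted was higher and 8 were lower, beside 18.2% and 49.2% over all genes.

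Genes of the PI3K, AKT, mTOR and MAPK routes below the receptor were counted in 19 of 30 rows. Of these 8 were at least 2-fold lower in estrus, 3 were higher and 8 lay between, beside 33.1% lower and 31.3% higher over all counted genes, and the log2 ratios had a median of -0.37. With equal sums 11 of 20 counted were lower and 1 was higher, where 49.2% of all genes were lower and 18.2% higher. Of the 8 lower on the values as deposited, 5 were listed at 0 in estrus, and in 6 of the 19 the diestrus value amounts to fewer than 3 fragments on 1 kb. FOXO1, a transcription factor that AKT keeps out of the nucleus, stood at 4.76 FPKM at estrus against 131 FPKM at diestrus, or -4.52 as a log2 ratio. EIF4EBP1, a translation repressor that mTOR phosphorylates, stood at 261 FPKM at estrus against 147 FPKM at diestrus, and its ratio, 0.83 on the log2 scale, became -0.13 with equal sums. MAPK3, the kinase ERK1, stood at 44.0 FPKM at estrus against 34.3 FPKM at diestrus, with 0.35 as the log2 ratio. Equal upper quartiles shift ratios by -0.39, so its sign already changed there, and it also did with equal sums. BAD, a pro-apoptotic target of AKT, stood at 31.9 FPKM at estrus against 65.7 FPKM at diestrus.

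Among the proteases that cut binding proteins, PAPPA stood at 0 FPKM at estrus against 2.47 FPKM at diestrus, under 3 fragments on 1 kb in both libraries. STC2, which inhibits PAPPA, was at 0 in both, and STC1, its relative, at 0.923 FPKM in estrus and 0 in diestrus. The estrus value of STC1 lies under what 3 fragments per kb are worth in diestrus. The most abundant members of the list were MMP2, a gelatinase, at 1082 FPKM at estrus against 1126 FPKM at diestrus, and CTSD, a lysosomal protease, at 96.3 FPKM at estrus against 313 FPKM at diestrus. HTRA1, a serine protease with an IGFBP-type domain, stood at 103 FPKM at estrus against 57.9 FPKM at diestrus, and C1S, a complement protease that can cut IGFBP5, at 20.8 FPKM at estrus against 96.2 FPKM at diestrus. Of 19 rows 9 were counted. In estrus 2 of them were at least 2-fold higher, 4 lower and 3 neither, beside 31.3% higher and 33.1% lower over all counted genes, and their log2 ratios had a median of -0.057. The median was -0.44 with equal upper quartiles and -1.02 with equal sums, where 2 were higher and 5 lower and 18.2% and 49.2% of all genes were. The ratio of HTRA1, 0.81 on the log2 scale, turned to -0.14 with equal sums.

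Carriers and cell-surface or matrix partners of binding proteins were higher in estrus in 4 of 8 counted rows, lower in 1 and between in 3. Over all counted genes 31.3% were higher and 33.1% lower. Their median log2 ratio of 0.94 turned to -0.26 with equal sums, where 2 of 7 counted were higher and 2 lower, beside 18.2% and 49.2% over all genes. With equal upper quartiles 3 of 8 were higher and 1 lower, beside 25.4% and 39.4% over all genes. ITGA5, the fibronectin receptor subunit, stood at 812 FPKM at estrus against 129 FPKM at diestrus. LRP1, an endocytic receptor, stood at 86.7 FPKM at estrus against 38.0 FPKM at diestrus. Its log2 ratio of 1.17 was 0.23 at its lowest over the other scalings. Fibronectin itself, FN1, stood at 680.1 FPKM at estrus against 418 FPKM at diestrus, and CAV1, the coat protein of caveolae, at 338 FPKM at estrus against 221 FPKM at diestrus. IGFALS, the subunit that completes the IGFBP3 carrier complex in blood, was among the 4 higher rows at 2.52 FPKM in estrus and 0 in diestrus, but that value lies under what 3 fragments per kb are worth in diestrus.

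Of 13 other proteins with an IGFBP-type domain 8 were counted. In estrus 1 of them was at least 2-fold higher, 2 lower and 5 neither, beside the same 31.3% and 33.1% of all counted genes. Their median log2 ratio of 0.71 turned to -0.24 with equal sums, where 0 were higher and 2 lower, beside 18.2% and 49.2% over all genes. The CCN matricellular proteins held the highest values of that list. CTGF stood at 1013 FPKM at estrus against 674 FPKM at diestrus, CYR61 at 794 FPKM at estrus against 485 FPKM at diestrus, and WISP2 at 169.6 FPKM at estrus against 103 FPKM at diestrus, all within 2-fold. NOV, a further member of that family, was lower in estrus at 254 FPKM, against 1257 FPKM in diestrus, a log2 ratio of -2.30.

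**Figure D5:**
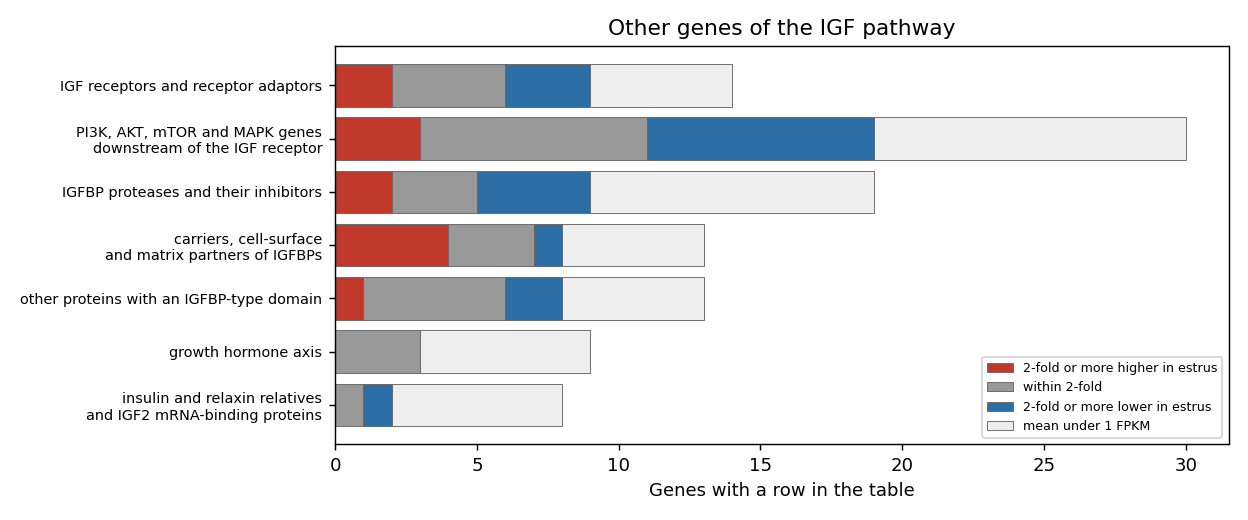
Number of genes (horizontal axis) in each list of the IGF pathway that were at least 2-fold higher in estrus, within 2-fold, at least 2-fold lower in estrus, or under a mean of 1 FPKM. The list of carriers and partners has 4 higher and 1 lower. That of the kinase routes has 3 higher and 8 lower, 5 of these at 0 in estrus. Over all counted genes 31.3% were higher and 33.1% lower. With equal FPKM sums the carriers and partners have 2 higher and 2 lower, beside 18.2% and 49.2% of all genes. The kinase routes then have 1 higher and 11 lower.

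Of the growth hormone axis, which drives IGF1 in liver, 5 of 9 rows were at 0 in both libraries, GHR among them, beside 10334 of all 20905 genes. With 1 FPKM added to each value the 3 counted rows lay within 2-fold, where 31.3% of all counted genes were higher in estrus and 33.1% lower. SOCS2, a feedback inhibitor of growth hormone signalling, stood at 11.4 FPKM at estrus against 22.2 FPKM at diestrus, CISH at 1.20 FPKM at estrus against 2.78 FPKM at diestrus, and STAT5A at 1.01 FPKM at estrus against 1.09 FPKM at diestrus. The plain values of CISH are more than 2-fold apart, and its log2 ratio of -0.78 is under 2-fold only through the added 1 FPKM. The diestrus values of CISH and STAT5A amount to fewer than 3 fragments on 1 kb. With equal upper quartiles or equal sums 2 of the 3 counted rows were lower in estrus by 2-fold or more. So were 39.4% of all counted genes with equal upper quartiles and 49.2% with equal sums. The IGF2 mRNA-binding protein IGF2BP2 was listed at 0 in estrus, with 10.1 FPKM in diestrus. IGF2BP3 stood at 1.08 FPKM at estrus against 2.91 FPKM at diestrus, the diestrus value being under 3 fragments on 1 kb. The remaining 6 of the 8 rows for insulin and relaxin relatives and IGF2 mRNA-binding proteins were at 0 in both libraries.

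Genes with the values most like those of a member were taken as the nearest pair on log2(FPKM + 1) over the 2 libraries, at distances of 0.0082 to 0.19. They were SQSTM1 and PRRX2 for IGFBP4, ARL2 and TXNIP for IGFBP5, TRAPPC1 and ASNS for IGFBP2, UBALD1 and PTGES3 for IGFBP6, and ECHDC2 and NDUFS8 for IGFBP7. MFAP2 and GUK1 were nearest to IGFBP3, and AMTN and CLASRP to IGF2, all of them at 0 in estrus. With 2 libraries such likeness is of 2 values only.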

How the data were processed

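Cell-free total RNA of saliva was sequenced from 1 estrus and 1 diestrus sample, with stages taken from the labels. Libraries were prepared with an Illumina TruSeq RNA kit (version 2), per the labels' protocols. The submitters' processing notes list Cuffdiff, Cufflinks, TopHat and Bowtie. The genome build and the versions of these tools are not given in the sources used here. As deposited by the authors, the table holds, per its file headers, FPKM values per gene, a log2 fold change (diestrus over estrus), a test statistic (a score), and p-values and q-values, which were copied and not recomputed. Rescaling between libraries is not given in the sources used here. Positions come from the table and count from 1. The buffalo RefSeq annotation NDDB_SH_1, used for names and neighbours only, holds all 9 symbols.

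With 1 library per stage no test was made. Ratios were log2((estrus FPKM + 1)/(diestrus FPKM + 1)), genes were counted at a mean of at least 1 FPKM and called at 2-fold. Fragment steps came from loci of 400 to 3000 bp within 0.5%, with 40 loci on the step in estrus and 107 in diestrus, against a median of 2 on other steps, after a search tested on simulated data. Since spliced lengths are unknown, no counts per gene were computed and intervals assume 1 kb. Named genes were all members, up to 4 counted genes of highest mean in each list, and IGF1R, IGF2R, INSR, PAPPA, STC1, STC2 and IGFALS; other list genes named as markers or in counts were chosen after their values were seen. For members with a mean of at least 10 FPKM, the 2 nearest genes were named. Members and lists were chosen with earlier results of these data known. Alternatives covered pseudocounts of 0.1 and 10, filters and scalings. Python 3.11.15, numpy 2.4.6, pandas 2.3.3, scipy 1.17.1 and matplotlib 3.10.9 were used.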

Additional observations from a re-analysis of the deposited data

How the results depend on the processing

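The count of members at least 2-fold lower in estrus was 4 under all 9 alternatives to the scale, filter and pseudocount. The share of all counted genes that were lower ran from 11.8% with a pseudocount of 10 to 49.2% with equal FPKM sums. Whether the 0 of IGF2 and of IGFBP3 in estrus is a failed estimate cannot be decided this way, because no alternative leaves those values out. The count of members at least 2-fold higher was 1, and 0 with equal FPKM sums. It was also 0 with equal sums after leaving out OPRM1, PPARGC1A, TBX15 and CSPG5, an alternative chosen after seeing the data. The share of all counted genes that were higher ran from 13.4% with no filter to 38.7% at a mean of at least 10 FPKM. The median log2 ratio of the members, -1.19, was -0.039 with no filter, where the rows at 0 in both libraries enter. It was -1.57 with equal upper quartiles, -2.14 with equal sums and -1.74 with equal sums without those 4 rows. The median of all counted genes was -0.40 with equal upper quartiles, -0.96 with equal sums and -0.56 with equal sums without the 4 rows. The log2 ratio of the summed binding proteins, 0.21, was 0.10 with the median ratio set to 1, -0.18 with equal upper quartiles, -0.75 with equal sums, -0.35 with equal sums without the 4 rows, and -0.75 without IGFBP4, which was also chosen after seeing the data. Of the other alternative values of these results, 24 moved by less than their counting error or kept the count. No paired analysis was possible because each stage has 1 library, and for the same reason no library could be left out. The diestrus library limits the depth: values there under 3.76 FPKM rest on fewer than 3 fragments per kb.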

Other observations

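Among rows with similar names that are not IGF family members, IGFLR1, the receptor of the unrelated IGF-like family, stood at 7.67 FPKM at estrus against 4.45 FPKM at diestrus, with 0.67 as the log2 ratio. IGFL1, its ligand family, was at 0 in both libraries. These rows were chosen after their values were seen.

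Of the rows next to members, TOP2A, 19483 bp from IGFBP4, stood at 1.57 FPKM in estrus and 0 in diestrus, and TNS4, 12716 bp away on the other side, at 1.82 FPKM at estrus against 4.23 FPKM at diestrus. The estrus value of TOP2A lies under what 3 fragments per kb are worth in diestrus. NOA1, 682 bp from the locus of IGFBP7, stood at 17.2 FPKM at estrus against 2.51 FPKM at diestrus, the diestrus value being under 3 fragments on 1 kb. SOAT2, 1183 bp from IGFBP6, was at 0 in both libraries.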
